A study of Mus musculus with 9 samples.

Results

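The 7 mouse sirtuins (Sirt1 to Sirt7) and 3 enzymes that build poly-ADP-ribose (Parp1, Parp2 and tankyrase, Tnks) were followed by symbol as a group of enzymes that use NAD. All 10 were found, out of 55487 genes in the count table, and all 10 passed the filter on low counts. Their transcripts were measured by RNA sequencing in the mouse melanoma line B16F10, 6 h into treatment. One group received interferon gamma (IFNγ) at 50 ng/mL together with FK866 at 50 nM, one received IFNγ at 50 ng/mL alone, and one was kept in medium alone. FK866 is an inhibitor of NAMPT, which catalyses the rate-limiting step of NAD salvage. There are 3 libraries per group, titled Control 3, 4 and 5 whatever the agent, and the meaning of these numbers is not given. All libraries come from 1 cell line, no group received FK866 without IFNγ, and it is not known from the labels if a group's libraries are separate cultures, so p-values reflect the spread between libraries, which may be technical.

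Sirtuins remove acetyl and other acyl groups from lysines and split NAD in each round, so that their activity depends on NAD supply. SIRT1, SIRT6 and SIRT7 are mainly nuclear, SIRT2 is mainly cytoplasmic, and SIRT3, SIRT4 and SIRT5 are mitochondrial. PARP1 and PARP2 sense DNA breaks and polymerise ADP-ribose from NAD onto proteins, and tankyrase adds such chains to telomere, spindle and Wnt pathway proteins, among them axin. The question put to these data is whether transcripts of NAD users change when FK866 is added during an IFNγ response. Whether FK866 had lowered NAD salvage in these cells by 6 h was not measured. RNA levels say nothing of enzyme activity or of NAD itself, which were not measured here.

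Library totals ran from 15317003 to 18466972 counts, and levels are given as CPM (counts scaled to library size) after TMM normalisation. The IFNγ treatment was visible in Irf1, which encodes an interferon-induced transcription factor and averaged 747 ± 42.4 CPM with IFNγ plus FK866, 787 ± 34.2 CPM with IFNγ and 17.3 ± 3.31 CPM in media (SD, n = 3 each). Nampt, whose protein FK866 targets, averaged 522 ± 79.9, 538 ± 47.1 and 192 ± 33.4 CPM in the same 3 groups (SD, n = 3 each). Every library expressed the melanocyte genes Mitf, Tyr, Tyrp1, Dct, Pmel, Mlana and Sox10, whose summed level ran from 14982 to 19023 CPM. The leukocyte markers Ptprc, Itgam and Nkg7 were at 0 in every library, and the summed level of the leukocyte list was 3.38 to 12.3 CPM. Of 10 fibroblast, endothelial and keratinocyte markers, 5 (Cdh5, Kdr, Krt5, Krt14 and Epcam) were at 0 throughout, with a summed level of 3.49 to 14.8 CPM. Libraries with the same number deviated together from their group means, so treatment comparisons were fitted both as group means alone and with the number as a block, and a fold change or p below is from the group means unless the block is named.

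Promoter sequences were compared first, because promoters of IFNγ-responsive genes often hold the GAS motif TTCNNNGAA or the ISRE, the element bound by IRF factors, searched here by its core, GAAA and again GAAA with any pair of bases between. RefSeq promoter windows of GRCm38.p6, from 250 bases before the annotated gene start and 300 bases long, were at hand for 9 of the 10 genes, as 11 windows; Tnks has no entry. GAS was found in 1 of these 11 windows, that of Sirt7, against 8.30% of all 32851 promoters. The ISRE core was found in 0 of the 11, against 3.44% of all promoters. Both strands were searched, and GAS reads the same on both strands. The Sirt7 match (chr11:120625077-120625125, minus strand) is shown beside that of Irf1 (chr11:53769904-53769952, plus strand), each with 20 bases on either side and the motif in capitals.
Sirt7: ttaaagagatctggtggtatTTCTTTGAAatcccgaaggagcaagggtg
Irf1: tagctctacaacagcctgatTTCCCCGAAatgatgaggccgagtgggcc
The motif starts 91 bases before the RefSeq start in Sirt7 and 90 bases before it in Irf1. GENCODE M21 places the start of Sirt7 further upstream, at 120625240, so that the motif begins 135 bases inside that gene model. Irf1 RNA was 45.6-fold higher with IFNγ than in media, a log2 fold change of 5.51 (SE 0.16, edgeR adjusted p = 3.97e-08). Sirt7 RNA differed by a log2 fold change of 0.15 (SE 0.16, adjusted p = 1). A match is a description of sequence and not evidence of binding.

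To set different genes side by side, levels were divided by the union length of all annotated exons of a gene. The transcripts in use may be shorter, which was not examined, so the order below holds for this length only. Per kilobase of exon Parp1 was highest, with a mean of 32.2 CPM per kb over the 9 libraries and a range of 25.2 to 40.5. Tnks followed at 18.6 (13.6 to 24.0) and Sirt2 at 14.5 CPM per kb (11.2 to 17.2). Sirt6, at 6.64, Sirt7, at 5.34, Parp2, at 4.53, and Sirt1, at 3.34 CPM per kb, formed the middle of the order. The 3 mitochondrial sirtuins were lowest, with means of 1.20 CPM per kb for Sirt4, 1.09 for Sirt5 and 0.722 for Sirt3. Neighbours whose ranges overlapped were Tnks and Sirt2, Sirt6 and Sirt7, Sirt7 and Parp2, Parp2 and Sirt1, and Sirt4 and Sirt5. In the first of these pairs Tnks was above Sirt2 in 7 of the 9 libraries, and Sirt4 was above Sirt5 in 5 of 9, while in the other 3 pairs the higher gene was higher in all 9. Raw counts of Sirt4 (26 to 75 per library) and Sirt3 (46 to 99) were the lowest, and their values carry the widest errors. Sirt3 shares 418 exon bases with Ric8a and 342 with Psmd13, both on the other strand. In media these averaged 19.5 and 80.3 CPM, against 4.19 CPM for Sirt3. How reads over the shared bases were assigned is not given, so their part in the Sirt3 level is unknown.

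**Figure D1:**
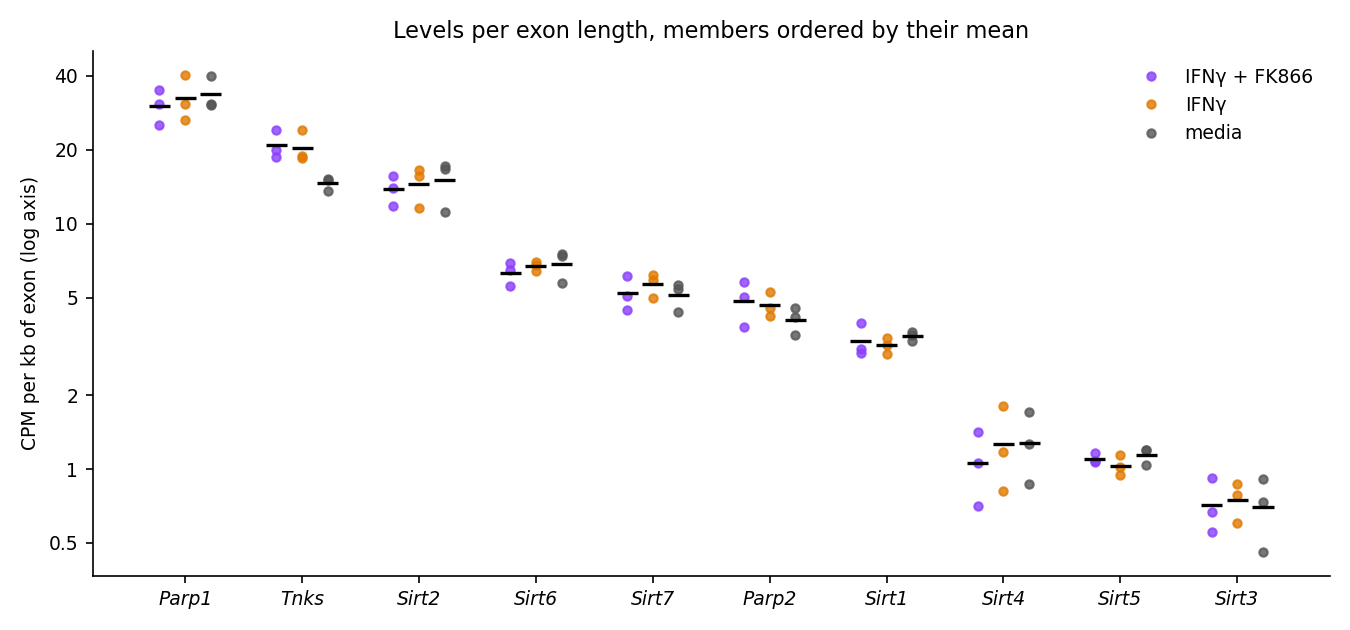
CPM per kilobase of union exon length (log axis) for the 10 genes, ordered by mean; each point is 1 library, coloured by group (IFNγ plus FK866, IFNγ, media), and black bars are group means. Parp1 lies between 25.2 and 40.5 CPM per kb in every library, and Sirt3, Sirt4 and Sirt5 lie below 2.

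Adding FK866 to IFNγ changed the RNA of none of the 10 genes detectably. No member was called at an adjusted p below 0.05, where 0 percent of the 15237 genes tested were called (edgeR), and 88 genes passed 0.05 unadjusted, none of them a member. DESeq2 and limma-voom called 0 genes as well, where 61 and 85 genes passed 0.05 unadjusted. With the number as a block, 3 genes or 0.0197 percent were called, none a member: the predicted genes Gm28661 (log2 fold change 0.74, adjusted p = 0.00281) and Gm24497 (1.90, adjusted p = 0.0311), and CT010467.1 (-0.47, adjusted p = 0.0311), named after their values were seen. In that blocked fit the log2 fold changes of the members ran from -0.24 to 0.09, with adjusted p-values of 0.987 to 0.989. A p that misses the threshold does not show equal levels, so the 95% intervals of the differences follow by role, all for IFNγ plus FK866 over IFNγ from the blocked fit.

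Among the nuclear sirtuins, Sirt1, a deacetylase of histones, p53 and FOXO factors, had 16.5, 21.1 and 15.8 CPM with IFNγ plus FK866, against 15.7, 18.3 and 17.1 CPM with IFNγ and 18.8, 19.2 and 17.7 CPM in media, for numbers 3, 4 and 5. The FK866 library numbered 4 was highest of all 9, and the groups overlapped. Its fold with FK866 was 1.04, with an interval of 0.896 to 1.21. Sirt6, which acts on histone H3 in chromatin and DNA repair, had 19.3, 18 and 15.5 CPM with IFNγ plus FK866, against 19.5, 18.9 and 17.9 CPM with IFNγ and 16.0, 20.5 and 21 CPM in media. FK866 libraries were below the IFNγ library of the same number in all 3 pairs, by log2 differences of 0.02 to 0.21 in size, within overlapping ranges. The fold was 0.939 (0.794 to 1.11). Sirt7, a nucleolar sirtuin tied to rRNA transcription, had 31.4, 26.1 and 22.9 CPM with IFNγ plus FK866, against 31.8, 30.4 and 25.7 CPM with IFNγ and 27.8, 28.9 and 22.4 CPM in media. Number 5 was lowest in every group, and the fold with FK866 was 0.911 (0.806 to 1.03). Summed over these 3 genes, levels averaged 62.1 ± 7.04 CPM with IFNγ plus FK866, 65.1 ± 3.81 with IFNγ and 64.1 ± 4.00 in media (SD, n = 3 each).

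Sirt2, the mainly cytoplasmic sirtuin and a tubulin deacetylase, had 59.3, 70.3 and 78.9 CPM with IFNγ plus FK866, against 58.3, 78.4 and 83.0 CPM with IFNγ and 56.6, 83.9 and 86.7 CPM in media. In all 3 groups the library numbered 3 was lowest. The fold with FK866 was 0.953 (0.864 to 1.05).

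Of the mitochondrial sirtuins, Sirt3, the main mitochondrial deacetylase, had 3.29, 4.00 and 5.50 CPM with IFNγ plus FK866, against 4.67, 5.18 and 3.61 CPM with IFNγ and 4.39, 5.42 and 2.75 CPM in media. The pairs went both ways: FK866 was lower at numbers 3 and 4 and higher at number 5. Its fold of 0.954 had an interval of 0.667 to 1.37. Sirt4, which regulates glutamate dehydrogenase, had 3.41, 2.55 and 1.70 CPM with IFNγ plus FK866, against 4.35, 2.80 and 1.95 CPM with IFNγ and 3.01, 4.11 and 2.09 CPM in media. It was lower with FK866 in all 3 pairs, with a fold of 0.847 and the widest interval of the 10 genes on the log2 scale (fold 0.580 to 1.24). Sirt5, which removes succinyl and malonyl groups, had 7.09, 6.55 and 6.55 CPM with IFNγ plus FK866, against 6.19, 5.79 and 6.93 CPM with IFNγ and 7.28, 7.29 and 6.33 CPM in media. Its fold was 1.07 (0.845 to 1.35), and its values spanned the narrowest range of the mitochondrial set. Together the 3 genes summed to 13.5 ± 0.386 CPM with IFNγ plus FK866, 13.8 ± 1.36 CPM with IFNγ and 14.2 ± 2.86 CPM in media (SD, n = 3 each).

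Parp1, the main poly-ADP-ribose polymerase of the DNA damage response, had 162, 133 and 185 CPM with IFNγ plus FK866, against 163, 140 and 214 CPM with IFNγ and 162, 162 and 212 CPM in media. Number 5 was the highest library in each group. The fold with FK866 was 0.934 (0.850 to 1.03). Parp2, its relative, had 20.9, 18.2 and 13.8 CPM with IFNγ plus FK866, against 19.1, 16.4 and 15.2 CPM with IFNγ and 16.4, 15.1 and 12.8 CPM in media. Here number 3 was the highest in each group, and the fold was 1.04 (0.894 to 1.20). Tnks had 278, 358 and 297 CPM with IFNγ plus FK866, against 275, 358 and 280 CPM with IFNγ. These pairs differed by log2 values of 0.01, 0.00 and 0.09, and the fold was 1.02 (0.926 to 1.13).

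**Figure D2:**
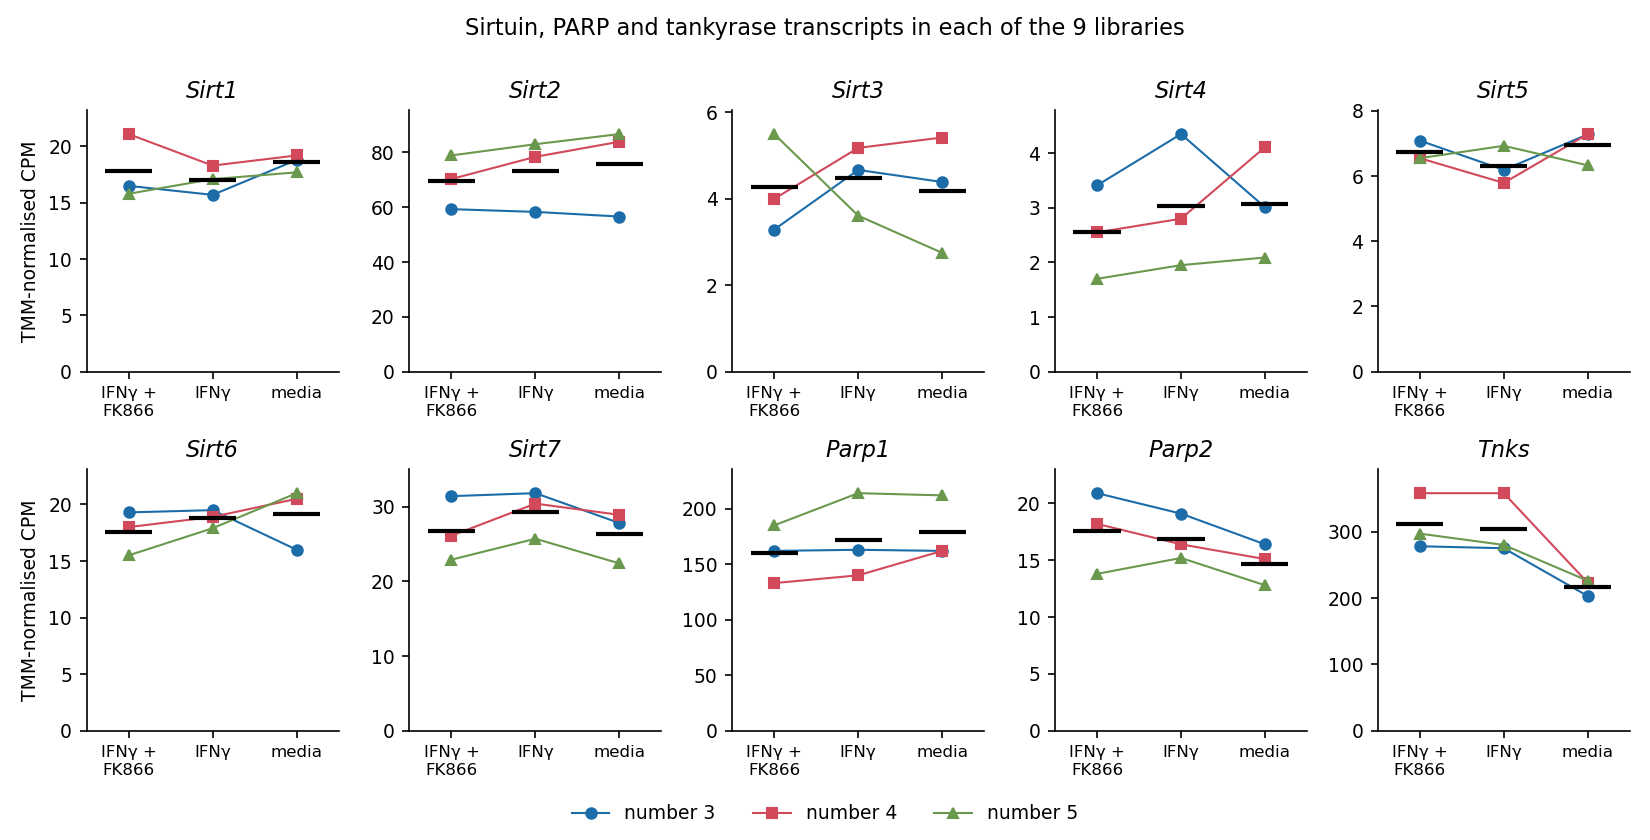
CPM (linear axis from 0) of each of the 10 genes by group, IFNγ plus FK866, IFNγ and media from left to right; each point is 1 library, lines join libraries of the same number (3, 4 or 5) and black bars are group means. Tnks is the single gene whose IFNγ libraries, with or without FK866 (275 to 358 CPM), all lie above every media library (203 to 226 CPM).

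With IFNγ over media none of the 10 genes was called without the block, and Tnks alone was called with it. Tnks (chr8:34826460-34965690, minus strand, GRCm38) had 275 to 358 CPM in the 6 libraries with IFNγ, with or without FK866, all above the 203, 223 and 226 CPM in media. IFNγ libraries exceeded the media library of the same number by log2 values of 0.44, 0.68 and 0.31. The fold with IFNγ over media was 1.4, a log2 fold change of 0.49 (SE 0.14), and with an adjusted p of 0.122 it was not called by edgeR without the block, where 3.30 percent of all genes were called. With the number as a block Tnks rose 1.39-fold (95% interval 1.26 to 1.54), a log2 fold change of 0.48 (SE 0.07), and edgeR's adjusted p was 3.40e-05. In that fit 14.3 percent of all genes were called, 8.12 percent as higher, so 1 of 10 members is close to the share over all genes. Tnks was also the only member whose IFNγ and media libraries did not overlap, where 7.97 percent of all genes did not overlap in the higher direction. In bulk RNA a change in RNA per cell and a change in the share of cells that express a gene cannot be told apart.

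With IFNγ plus FK866 over media, which shares the media libraries with the preceding comparison, Tnks had a log2 fold change of 0.52 (SE 0.14, adjusted p = 0.0923), not called, where 3.36 percent of all genes were. With the block it rose 1.42-fold (95% interval 1.29 to 1.58), or 0.51 on the log2 scale (adjusted p = 1.38e-05), where 16.1 percent of genes were called, 8.53 percent as higher. The 3 IFNγ plus FK866 libraries did not overlap with media, which was true of 7.98 percent of all genes in the higher direction. The differences within numbers were 0.46, 0.68 and 0.40. DESeq2 without the block called Tnks in both comparisons, with adjusted p-values of 0.0138 with IFNγ plus FK866 and 0.0293 with IFNγ alone. Leaving out all libraries of 1 number in the blocked fit gave log2 fold changes of 0.44 to 0.58 with IFNγ plus FK866 and 0.37 to 0.57 with IFNγ, called each time.

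The paralog Tnks2, the other tankyrase, had 171 ± 9 CPM with IFNγ plus FK866, 181 ± 11.2 CPM with IFNγ and 185 ± 9.46 CPM in media (SD, n = 3 each). With the block its log2 fold change for IFNγ over media was -0.03, with a 95% interval of -0.15 to 0.08, which does not reach the interval of Tnks (0.33 to 0.62); the difference between the paralogs was not tested. Exons of Tnks share 635 bases with Gm9939, a noncoding gene on the other strand, and the strand setting of the counting is not given in the sources used here. Gm9939 was counted at 1.37 ± 0.627 CPM with IFNγ plus FK866, 0.908 ± 0.0174 CPM with IFNγ and 0.619 ± 0.219 CPM in media (SD, n = 3 each), below 1 percent of Tnks. Its IFNγ libraries also lay above those in media (log2 fold change 0.56, edgeR adjusted p = 0.984, not called). How reads over the shared bases were assigned is not given, so this count cannot show how many of them fall in Tnks.

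Some cell type markers moved with IFNγ beside Tnks, where 3.30 percent of all genes were called without the block and 14.3 percent with it. Mitf, a transcription factor of melanocytes, averaged 377 ± 30.9 CPM with IFNγ plus FK866, 335 ± 60.5 CPM with IFNγ and 807 ± 68.4 CPM in media (SD, n = 3 each), and fell with IFNγ over media at -1.27 on the log2 scale (adjusted p = 7.73e-04 without the block). With the block Tyr (-0.33, adjusted p = 5.83e-04) and Sox10 (-0.30, adjusted p = 0.00175) fell as well. Neither was called without the block, and their IFNγ and media libraries overlapped. Tyrp1 (-0.07), Pmel (-0.06), Mlana (-0.03) and Dct (-0.17 with the block) were called in neither fit. Summed over the 7 melanocyte genes, levels were 14982 to 17078 CPM with IFNγ plus FK866, 15538 to 17187 CPM with IFNγ and 16881 to 19023 CPM in media. Col1a2, a collagen gene of fibroblasts, averaged 2.44 ± 0.483, 1.68 ± 0.328 and 5.45 ± 1.24 CPM in those groups (SD, n = 3 each) and fell with IFNγ over media (-1.69, adjusted p = 0.00952 without the block). The summed fibroblast, endothelial and keratinocyte markers were 3.97 to 10.1, 3.49 to 8.77 and 7.46 to 14.8 CPM, and the summed leukocyte markers 4.65 to 9.88, 3.38 to 11.3 and 3.82 to 12.3 CPM. The part of these markers in the Tnks difference was not tested.

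In the blocked fit, next in size after Tnks with IFNγ were Parp2, with a log2 fold change of 0.20 (SE 0.10), and Sirt7, with 0.15 (SE 0.09), both higher in all 3 numbers. Their blocked adjusted p-values were 0.268 and 0.316. With IFNγ plus FK866 over media, again with the block, Parp2 stood at 0.25 (95% interval 0.04 to 0.47, adjusted p = 0.114) and Parp1 at -0.16 (-0.30 to -0.02, adjusted p = 0.118). These intervals leave out 0 before adjustment over all genes, and neither gene was called. For the mitochondrial sirtuins the blocked intervals of IFNγ over media were wide, from a fold of 0.752 to 1.54 for Sirt3, 0.666 to 1.4 for Sirt4 and 0.717 to 1.14 for Sirt5. The remaining blocked folds for IFNγ over media were 0.918 (0.790 to 1.07) for Sirt1, 0.971 (0.880 to 1.07) for Sirt2, 0.977 (0.827 to 1.15) for Sirt6 and 0.959 (0.872 to 1.05) for Parp1.

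**Figure D3:**
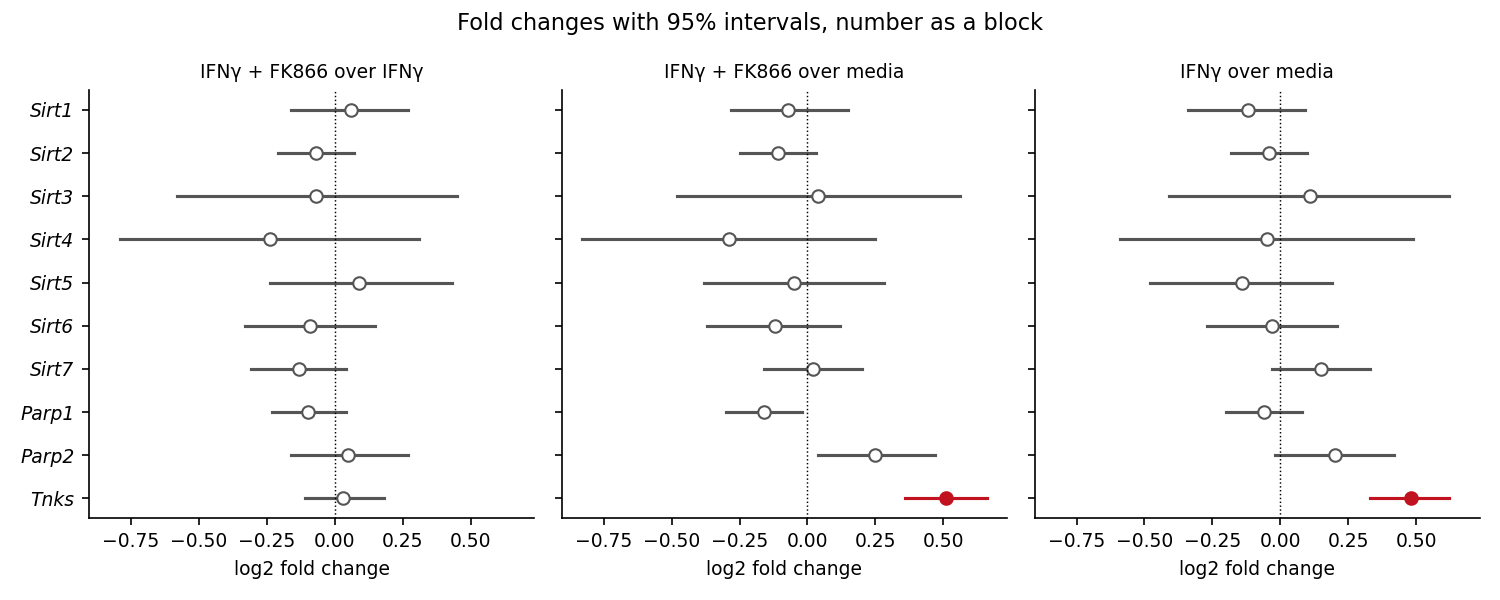
Log2 fold changes (x axis) of the 10 genes (rows) in the 3 treatment comparisons, from the fit with the number as a block; bars are 95% intervals, filled red points were called at an adjusted p below 0.05 and open points were not. Tnks is called in both comparisons with media (0.51 with IFNγ plus FK866, 0.48 with IFNγ) and lies at 0.03 for IFNγ plus FK866 over IFNγ.

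Several other NAD users rose strongly with IFNγ. The list of other NAD consumers holds 15 genes, chiefly PARP family members that attach single ADP-ribose units, with Cd38, Sarm1 and Tnks2. Of its 14 tested genes, 7 rose with IFNγ over media without the block and 0 fell, where 3.30 percent of all genes were called, with a median log2 fold change of 0.87, against -0.01 over all genes. Parp14, a mono-ADP-ribosyltransferase, averaged 609 ± 109 CPM with IFNγ plus FK866, 588 ± 94.5 CPM with IFNγ and 5.22 ± 1.17 CPM in media (SD, n = 3 each). It rose 113-fold with IFNγ over media, a log2 fold change of 6.81 (SE 0.25, adjusted p = 2.32e-07). Parp9, the partner of the ubiquitin ligase DTX3L, rose with a log2 fold change of 4.85 (adjusted p = 2.97e-06), and Parp10 with 3.45 (adjusted p = 6.30e-06). With the block, under which 14.3 percent of all genes were called, 8 rose, Parp4 (0.69) being the addition, and Parp16, an enzyme of the endoplasmic reticulum, fell (-0.49, adjusted p = 0.00607). FK866 moved none of the 14 past the threshold in either fit, where 0 percent of all genes were called without the block and 0.0197 percent with it. Parp8 had the smallest p, at 0.19 on the log2 scale (adjusted p = 0.987 with the block).

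**Figure D4:**
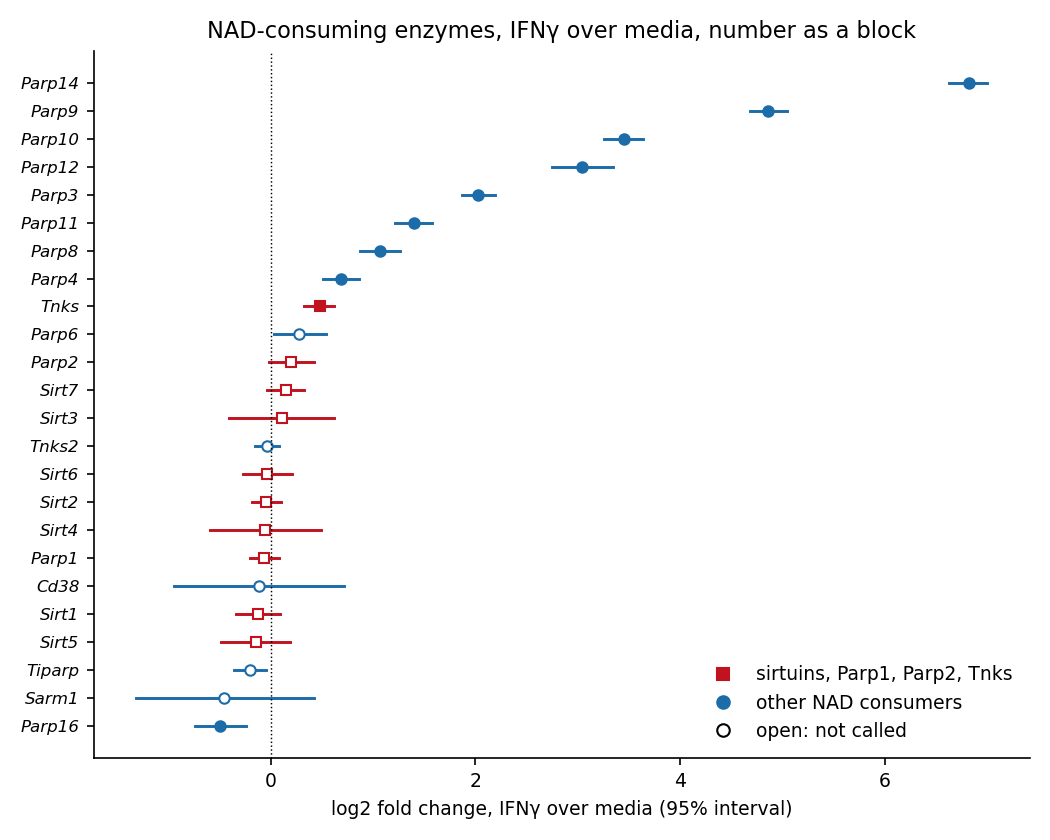
Log2 fold change of IFNγ over media (x axis) with 95% intervals, number as a block, for the 10 genes (red squares) and the other NAD consumers (blue circles); open symbols were not called. Parp14 lies at 6.82, Parp9 at 4.86 and Parp10 at 3.45, while the 10 genes lie between -0.14 and 0.48.

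Genes tied to tankyrase were read beside Tnks. Of 13 tankyrase partners, 2 rose with IFNγ over media without the block and 0 fell, where 3.30 percent of all genes were called, with a median log2 fold change of 0.09 against -0.01 over all genes. Usp25, a deubiquitinase that binds tankyrase, averaged 145 ± 8.13 CPM with IFNγ plus FK866, 132 ± 6.37 CPM with IFNγ and 79.4 ± 5.98 CPM in media (SD, n = 3 each), and its log2 fold change with IFNγ was 0.73 (adjusted p = 0.00208). Axin2, an axin that is itself a Wnt target gene, averaged 49.0 ± 11.4, 48.9 ± 7.71 and 24.6 ± 3.28 CPM in those groups, with a log2 fold change of 0.99 (adjusted p = 0.0205). With the block, under which 14.3 percent of all genes were called, Amotl2, an angiomotin, fell (-0.23, adjusted p = 0.00866). With IFNγ plus FK866 over media the blocked fit, under which 16.1 percent of all genes were called, added Terf1, a telomere protein modified by tankyrase. Terf1 stood there at 0.32 (adjusted p = 0.0105, and 0.361 without the block). For IFNγ plus FK866 over IFNγ it stood at 0.20, with an adjusted p of 0.987 with the block.

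For the 3 lists that follow, the shares of all genes called with IFNγ over media were 3.30 percent without the block and 14.3 percent with it. They were 3.36 and 16.1 percent for IFNγ plus FK866 over media, and 0 and 0.0197 percent for IFNγ plus FK866 over IFNγ. Counts from lists of this size are a description beside those shares. None of the 18 genes that remove ADP-ribose or repair DNA with PARP1 was called in a treatment comparison, with or without the block. The smallest p with IFNγ over media belonged to Adprhl2, an ADP-ribose hydrolase, at 0.35 (adjusted p = 0.404, and 0.0544 with the block), then Aptx at 0.23 and Aplf at -0.16. The 19 tested regulators and substrates of sirtuins gave 0 calls as well. Acss2, an acetyl-CoA synthetase that sirtuins activate, stood at 0.35 (adjusted p = 0.798, and 0.0739 with the block), and Foxo1 and Slc25a5 at 0.16 each. On the supply side, of 16 tested genes of NAD synthesis and salvage, Nampt alone was called with IFNγ over media, at a log2 fold change of 1.48 (SE 0.16, adjusted p = 5.04e-04). The block added Nnmt, which methylates nicotinamide, at 1.75 (adjusted p = 2.28e-07), and the purine nucleoside phosphorylase Pnp at 0.92 (adjusted p = 3.36e-04). FK866 changed none of these 3 lists past the threshold, and Nampt itself stood at -0.04 (adjusted p = 1) for IFNγ plus FK866 over IFNγ.

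In Sirt2 and Parp1 the libraries differed more by number than by treatment. In a fit with treatment and number together, number 3 was set against the mean of numbers 4 and 5, and number 4 against number 5. The libraries of a number differ in treatment and serve as its replicates. The p-values of these contrasts therefore reflect the spread left after both terms, and not the spread from number to number. The contrast of number 3 called 4 of the 10 genes, where 38.5 percent of all genes were called, and the other called 4 of 10, where 31.1 percent were. Both shares are near those over all genes, and the differences are given as a description of how these genes vary apart from treatment.

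Sirt2 (chr7:28766735-28788661, plus strand) was 56.6 to 59.3 CPM in the 3 libraries numbered 3, against 70.3 to 86.7 CPM in the 6 others, with no overlap. It was 27.4% lower at number 3, a log2 fold change of -0.46 (SE 0.06, adjusted p = 3.81e-06). Nfkbib, on the other strand with 42 exon bases shared with Sirt2, was 27.3% lower at number 3 (-0.46, adjusted p = 1.37e-05). Between numbers 4 and 5 Nfkbib was higher at number 4 (0.21, adjusted p = 0.034), while Sirt2 was not called (-0.10). The part of shared reads in the Sirt2 difference was not tested. Parp1 (chr1:180568924-180601254, plus strand) had 133 to 162 CPM in the libraries numbered 4, against 185 to 214 CPM in those numbered 5, again with no overlap. It was 28.8% lower at number 4, a log2 fold change of -0.49 (SE 0.07, adjusted p = 1.15e-05). Both calls held in all 16 alternatives tried for their contrast, among them the removal of each library and of each treatment group.

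The other calls by number did not hold in every alternative. Number 3 was higher than numbers 4 and 5 in Parp2 (log2 fold change 0.31, adjusted p = 0.00922) and Sirt7 (0.23, adjusted p = 0.0177), and lower in Tnks (-0.19, adjusted p = 0.0154), while Sirt4 was not called (0.55, adjusted p = 0.0533). The Parp2 call was lost without the IFNγ plus FK866 library 3 (0.26, adjusted p = 0.0773). For Sirt7 it was lost without the IFNγ plus FK866 library 3 (0.16, adjusted p = 0.175) or 4 (0.19, adjusted p = 0.0616), or the IFNγ library 3 (0.25, adjusted p = 0.0607). For Tnks it was lost without the IFNγ plus FK866 library 3 (-0.17, adjusted p = 0.0697), the IFNγ library 3 (-0.19, adjusted p = 0.101) or the IFNγ library 4 (-0.16, adjusted p = 0.0634). Number 4 was higher than number 5 in Sirt4 (0.71, adjusted p = 0.0480), Sirt7 (0.27, adjusted p = 0.0237) and Tnks (0.20, adjusted p = 0.0308). Leaving out 1 library ended the Sirt4 call for 7 of the 9 libraries (all but the media library 3 and the IFNγ plus FK866 library 3), with adjusted p-values up to 0.325 without the media library 4 (0.44). It ended the Sirt7 call for 5 libraries (media 4 and 5, IFNγ 4 and 5, IFNγ plus FK866 5; 0.20 to 0.28, adjusted p 0.0668 to 0.150) and the Tnks call for 5 (every IFNγ library, IFNγ plus FK866 4 and 5; 0.14 to 0.20, adjusted p 0.0560 to 0.265). DESeq2 did not call Sirt4 (adjusted p = 0.101) or Sirt7 (adjusted p = 0.069) between numbers 4 and 5. Leaving out all libraries of a treatment group ended each of these calls for at least 1 group.

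**Figure D5:**
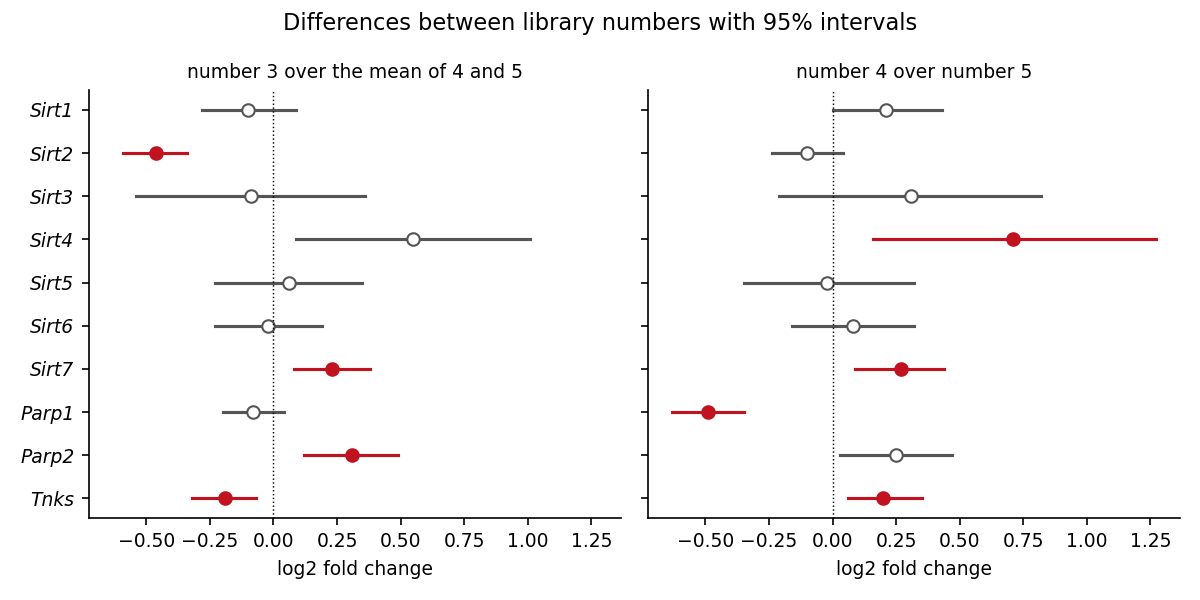
Log2 differences (x axis) of the 10 genes (rows) between library numbers, number 3 over the mean of 4 and 5 and number 4 over number 5, with 95% intervals; filled red points were called and open points were not. Sirt2 at -0.46 and Parp1 at -0.49 are the calls that held in every alternative.

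Scaling bears on the contrast of numbers 4 and 5: TMM gave 2422 genes higher and 2311 lower at number 4, while library totals alone gave 3592 higher and 1534 lower, with a median over all genes of 0.096 against 0.010. Parp1 stayed lower at number 4 under library totals (-0.40, adjusted p = 4.63e-05), and Sirt5 changed sign with no call under either. Under library totals Sirt1 (0.30, adjusted p = 0.0341) and Parp2 (0.34, adjusted p = 0.0153) were called as higher at number 4, which they were not under TMM (adjusted p = 0.127 and 0.0762). Some cell type markers also differed by number. Of 7 melanocyte genes 2 were lower at number 4 than at number 5 and 0 higher, where 31.1 percent of all genes were called. They were Tyr, the melanin enzyme tyrosinase (log2 fold change -1.81, adjusted p = 1.54e-13), and Pmel (-0.22, adjusted p = 0.00654). Mitf (0.08), Dct (0.07), Tyrp1 (-0.06), Mlana (-0.04) and Sox10 (-0.11) were not called. At number 3 Dct was higher (0.43) and Sox10 (-0.28) and Mitf (-0.27) were lower, where 38.5 percent of all genes were called. Summed melanocyte genes ran from 17078 to 18025 CPM at number 3, 14982 to 16881 at number 4 and 15184 to 19023 at number 5. Summed leukocyte markers, nearly all Cd68, were 6.72 to 9.10 CPM at number 3, 9.88 to 12.3 at number 4 and 3.38 to 4.65 at number 5, with Ptprc, Itgam and Nkg7 at 0. Summed fibroblast, endothelial and keratinocyte markers were 3.49 to 7.60, 8.77 to 14.8 and 4.50 to 7.46 CPM, with Cdh5, Kdr, Krt5, Krt14 and Epcam at 0. Their part in the differences by number was not tested.

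Among genes linked to these enzymes, 9 of 19 sirtuin regulators and substrates were higher and 2 lower at number 3, where 38.5 percent of all genes were called. Glud1, glutamate dehydrogenase and a target of SIRT4 and SIRT3, was 2.36-fold higher (log2 fold change 1.24, adjusted p = 3.43e-13), Ppargc1a, a SIRT1 substrate that drives mitochondrial biogenesis, was at 0.93 (adjusted p = 1.13e-09) and Ccar2, a SIRT1 inhibitor, at 0.45 (adjusted p = 8.84e-06). Between numbers 4 and 5, 4 were higher and 6 lower at number 4, where 31.1 percent of all genes were called, among them Ppargc1a at -1.05 (adjusted p = 1.12e-08). Of the other NAD consumers, 8 of 14 were higher at number 3 and 0 lower, against the same 38.5 percent, led by Parp3 (0.43, adjusted p = 1.58e-05). For the PARP1 repair partners and ADP-ribose removal, 2 of 18 were higher and 5 lower at number 3, close to the 38.5 percent of all genes, with Hpf1, the cofactor that directs PARP1 and PARP2 to serine, at -0.38 (adjusted p = 1.80e-04).

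The genes whose profile over the 9 libraries was most like that of a member were ranked by the root mean square distance between standardised log2 CPM, over 9773 or 9774 other genes with a mean of at least 5 CPM. For Tnks they were Agap1 (distance 0.19), Maml2 (0.20) and Echdc2 (0.22), against a median distance of 1.46. Maml2, a Notch coactivator, averaged 59.3 CPM with IFNγ plus FK866, 58.7 CPM with IFNγ and 29.9 CPM in media. For Sirt2 they were Psen2 (0.13), Arhgdia (0.14) and Gtpbp1 (0.14), each lowest at number 3, and for Parp1 they were Hmgn2 (0.17), Ndufb7 (0.17) and Ppp2r5d (0.18), each highest at number 5. Parp2 was nearest to Caprin1 (0.20), Chmp2b (0.23) and Rexo4 (0.24), Sirt7 to Yars2 (0.23), Agps (0.24) and Clcn7 (0.26), and Sirt4 to Tnfsf9 (0.20), BC031181 (0.22) and Hdac10 (0.23). These points share libraries and the number differences above, and likeness is a description only.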

How the data were processed

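The authors deposited raw counts per Ensembl gene, 1 column per library, and the table was read as bulk RNA sequencing, since no column is a cell, despite a droplet platform in the series text. Per the submitters' processing notes, the tools were cutadapt 1.16, STAR 2.7.6a, DESeq2 1.30.1 and featureCounts 1.6.3, in no stated order, with mm10 and GRCm38 as builds. Strandedness of the counting is not given in the sources used here, so reads of members and of overlapping genes (Sirt1 and Gm16145, Sirt2 and Nfkbib, Sirt3 with Ric8a and Psmd13, Tnks and Gm9939) cannot be told apart over the shared exons, and Sirt7 shares exon bases with Mafg on its own strand.

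Symbols were matched for 55227 of 55487 gene IDs, and exon lengths and coordinates came from the GENCODE M21 annotation of GRCm38. The main test was the quasi-likelihood F test of edgeR 4.0.16 in R 4.3.3, after filterByExpr by group and TMM, over all 9 libraries, with Benjamini-Hochberg adjustment over 15237 genes holding 99.89% of counts; calls are at an adjusted p below 0.05. Treatment comparisons used group means, and number contrasts used group and number as terms. Alternatives were DESeq2 1.42.0, limma-voom (limma 3.58.1), other scalings, no filter, other sample sets and the number as a block. Intervals are 95% and SE comes from the F statistic. The fit was also run on simulated counts with known changes. Their number effects were additive, as the block assumes, and their spread was the same for every gene. That run therefore cannot show that the block suits these data.

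The block is justified by the titles' numbers together with the data: deviations from group means correlated by 0.547 to 0.722 over 9 same-number pairs. Over 18 different-number pairs they correlated by -0.469 to -0.101. Deviations within a group of 3 libraries sum to 0, so the second range follows from the first and adds no separate support. The block lowered the median standard error from 0.213 to 0.107. No replicates were merged, as chi-square per degree of freedom between them was 23.02 to 39.46.

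The members and the gene lists were chosen with earlier results of these data known, and lists are described by counts and medians without a set test. Named genes were the 10 members, Irf1 and Nampt, the 3 genes of smallest p of each list in the comparisons described, and the 3 genes nearest in profile to each called member (prior count 1, leaving out predicted genes, Riken clones and pseudogenes); other list members are named with their values, and Tnks2 as a paralog.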

Additional observations from a re-analysis of the deposited data

How the results depend on the processing

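Of the 10 members, Tnks alone was called in a treatment comparison under any of 20 alternatives. For IFNγ plus FK866 over media, Tnks gave 0.51 with the replicate block (adjusted p = 1.38e-05), 0.52 with DESeq2 (0.0138) and 0.51 with the block in DESeq2 (4.20e-11), and 0.41 to 0.59 over the fits that left out 1 library without the block or 1 number with it (adjusted p 3.65e-05 to 0.359), of which the 3 blocked ones called it. For IFNγ over media it gave 0.48 with the block (3.40e-05), 0.49 with DESeq2 (0.0293), 0.48 with the block in DESeq2 (1.51e-09), and 0.35 to 0.57 over the fits that left out libraries (5.00e-05 to 0.417), of which again the 3 blocked ones called it. limma-voom, other scalings, no filter and a fit of the 2 groups alone did not call it. The replicate block changed no other member's call.

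Genes called for IFNγ plus FK866 over media numbered 512, and 2459 with the block, 775 with DESeq2, 2025 with the block in DESeq2 and, without the block, 322 to 479 with 1 library left out (322 without media 4, 328 without IFNγ plus FK866 4). With the block and 1 number left out they were 1398 to 2602, against 2459. For IFNγ plus FK866 over IFNγ the counts were 0, then 3 with the block, 1 with the block in DESeq2 (Gm28661) and 0 with 1 library left out without the block. With the block and 1 number left out they were 1 to 8. For IFNγ over media they were 503, then 2173 with the block, 757 with DESeq2, 1838 with the block in DESeq2 and, without the block, 314 to 487 with 1 library left out (314 without media 4, media 5 or IFNγ 4). With the block and 1 number left out they were 1402 to 1883, against 2173. Without the IFNγ libraries the number contrasts called 3783 genes instead of 5869 (3 against 4 and 5) and 2309 instead of 4733 (4 against 5); leaving out 1 library gave 3062 (IFNγ 5) to 5358 for numbers 4 against 5.

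Changes of sign occurred among uncalled members. Over the fits with 1 library left out and the blocked fits with 1 number left out, log2 fold changes for IFNγ plus FK866 over media ran from -0.20 to 0.01 for Sirt1, -0.41 to 0.32 for Sirt3, -0.53 to 0.01 for Sirt4, -0.11 to 0.01 for Sirt5, -0.29 to 0.04 for Sirt6 and -0.11 to 0.12 for Sirt7. For IFNγ plus FK866 over IFNγ they ran from -0.08 to 0.15 for Sirt1, -0.21 to 0.03 for Sirt2, -0.43 to 0.13 for Sirt3, -0.50 to 0.11 for Sirt4, -0.24 to 0.07 for Parp1, -0.08 to 0.21 for Parp2 and -0.08 to 0.16 for Tnks. For IFNγ over media they ran from -0.22 to 0.09 for Sirt2, -0.13 to 0.33 for Sirt3, -0.37 to 0.25 for Sirt4, -0.17 to 0.08 for Sirt6 and -0.24 to 0.09 for Parp1. For number 3 over 4 and 5, Sirt3 ran from -0.23 to 0.13 and Sirt6 from -0.14 to 0.15, with 0.14 for Sirt6 without the media libraries and 0.14 for Sirt3 without the IFNγ plus FK866 libraries. For number 4 over 5, Sirt5 ran from -0.11 to 0.09 and Sirt6 from -0.02 to 0.21, with Sirt5 at 0.07 under library totals alone and 0.10 without the IFNγ libraries. The cause was not tested. Low counts of Sirt3 and Sirt4 limit what could be detected there, and 3 libraries per group limit every comparison.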

Other observations

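Of the other NAD users, the ectoenzyme gene Cd38 differed most between numbers 4 and 5, with a log2 fold change of -2.14 (SE 0.43, adjusted p = 7.09e-04). Its level was low, with means of 0.923 CPM with IFNγ plus FK866, 1.3 CPM with IFNγ and 1.32 CPM in media. The difference therefore rests on few reads. In NAD synthesis and salvage, Nnmt was higher at number 3 than at numbers 4 and 5 (log2 fold change 0.99, adjusted p = 9.56e-06) and lower at number 4 than at number 5 (-0.83, adjusted p = 0.00101), while Nampt was lower at number 3 (-0.30, adjusted p = 0.00117). Slc25a51, the mitochondrial NAD carrier, was lower at number 4 than at number 5 (-0.34, adjusted p = 2.93e-04). Tnks1bp1, which encodes a tankyrase binding protein, was higher at number 3 (0.46, adjusted p = 9.88e-07) and higher at number 4 than at number 5 (0.43, adjusted p = 3.52e-05).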
